A study of Rattus norvegicus with 40 samples.

Results

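The step from 1 to 10 mg/kg of GW7647 in rat liver was described from 20 arrays, the 10 of rats given 10 mg/kg and the 10 of rats given 1 mg/kg, out of 40 in the study. The members were chosen by their titles, which give the dose, and all 13438 genes with a symbol were compared. GW7647 is a synthetic agonist of the nuclear receptor PPAR-alpha. Adult male Sprague Dawley SD:CD rats received vehicle, 0.1, 1 or 10 mg/kg by gavage once a day over 4 days, and the liver was taken 24 hours after the last dose. The vehicle and 0.1 mg/kg groups, also of 10 rats each, enter here to tell which responses were already present below the step. Each array was hybridised with total RNA of 1 liver, so fewer cells of a type and less RNA per cell cannot be told apart.

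PPAR-alpha is activated by fatty acids and by drugs of the fibrate type and binds DNA together with the retinoid X receptor. In the rodent liver it raises the genes of fatty acid uptake, activation and oxidation in mitochondria and peroxisomes, of omega-hydroxylation and of lipid droplet turnover, and it lowers several genes of amino acid breakdown and of plasma proteins. Rat hepatocytes also respond to such agonists with growth of peroxisomes and with DNA synthesis.

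The deposited values are log2 signals per probe set, and 1 probe set stands for a gene. The words rose and fell are kept for genes that passed limma's test on both of 2 scales in the same direction, with an adjusted p under 0.05 (Benjamini-Hochberg, over all genes): the values as deposited, and the same values once the 40 arrays had been quantile normalized together. Folds of genes near the floor of the arrays depend on the background correction that the values already carry.

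Technical values differed between the groups. The median over all probe sets of an array was 2.60 ± 0.02 at 1 mg/kg and 2.71 ± 0.01 at 10 mg/kg (SD, n = 10). Poly-A spike-in controls, added to the RNA before labelling, averaged 6.22 ± 0.73 at 1 mg/kg and 6.56 ± 0.38 at 10 mg/kg; within the 1 mg/kg group arrays 1 to 4 averaged 5.46 and arrays 5 to 10 averaged 6.72. The actin 3' probe set exceeded the 5' probe set by 2.54 to 4.42 on arrays of the 1 mg/kg group (mean 3.11 ± 0.61). For the 10 mg/kg group this log2 difference ran from 2.74 to 3.97 (mean 3.22 ± 0.41, SD, n = 10), so the groups overlapped. Its link to the gene calls was not tested. It averaged 2.84 on arrays 1 to 4 of the 1 mg/kg group and 3.28 on arrays 5 to 10. No label calls these parts batches. Both were fitted separately against 10 mg/kg, and their counts are given beside the gene lists below. In those fits 878 genes (arrays 1 to 4; 3.93% of all rose and 2.6% fell) and 1638 genes (arrays 5 to 10; 6.93% and 5.26%) rose or fell, of which 762 and 1409 were also called, in the same direction, with all arrays. Of 567 genes with several probe sets that rose or fell, 29 had another probe set past the threshold in the opposite direction.

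From 1 to 10 mg/kg, 1149 genes rose, 8.55% of all tested, and 804 fell, 5.98%. Most of these changes were small. A change of at least 1.5-fold on both scales was seen for 184 rises and 119 falls, one of at least 2-fold for 55 rises and 16 falls, and one of at least 4-fold for 16 rises and 1 fall. Together they made up 14.5% of all genes. On the deposited scale alone 4109 genes were called, 30.6% of all (24.2% higher and 6.36% lower at 10 mg/kg), so that 79.2% of the calls were higher. After quantile normalization 2462 genes were called, 18.3% of all (8.58% higher and 9.74% lower), so that 46.8% of the calls were higher. Shifting the arrays to 1 common median gave 38.9% higher, and shifting them to 1 common mean of the hybridisation controls gave 52.7%, with 4.52% of all genes called higher and 4.05% lower. Over all genes the log2 change had a median of 0.09 as deposited, -0.01 once quantile normalized, -0.03 with a common median and 0.02 with common hybridisation controls, and changes of that size depend on the scale. Of the 133 genes named below, 113 rose or fell, which by definition fixes their sign on the first 2 scales. They had the same sign on the other 2 scales. There 109 stayed called with a common median and 105 with common hybridisation controls. Calls of Cyp4a1, Cyp7a1, Fabp1 and Fgf21 were lost on both, and those of C6, Hamp, Rfc3 and Dusp1 with common hybridisation controls only.

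Responses were sorted by what they had done at 1 mg/kg. At that dose 1485 genes had risen against vehicle (11.1%) and 453 had fallen (3.37%); at 10 mg/kg it was 2748 (20.4%) and 1033 (7.69%). Of the 1149 rises in the step, 354 had already risen at 1 mg/kg, 754 had no call there on both scales and 41 had fallen. Of the 804 falls, 92 had already fallen, 660 had no call and 52 had risen. A sharper sorting used the 356 genes that had changed by at least 1.5-fold on both scales at 1 mg/kg, 290 upward (2.16% of all genes) and 66 downward (0.491%). In this set 135 went on in the same direction in the step, 115 upward (0.856%) and 20 downward (0.149%). Another 133 were saturated (114 upward, 0.848%, and 19 downward, 0.141%), meaning that the 95% interval of the change from 1 to 10 mg/kg lay within 1.5-fold in either direction on both scales. These classes share 10 genes with a small further change. Of the 356, 6 turned back (0.0446% of all genes), and 1 of the 6 was also saturated. The remaining 93 met none of these rules. They were not called in the same direction on both scales, and their interval passed the bound on at least 1 scale. Conversely 31 genes started in the step (16 upward, 0.119%, and 15 downward, 0.112%): they changed by at least 1.5-fold against both 1 mg/kg and vehicle, while the interval of the change from vehicle to 1 mg/kg lay within 1.5-fold and no call was made at 0.1 mg/kg. The classes held similar numbers but partly other genes with either part of the 1 mg/kg arrays. Arrays 1 to 4 gave 118 saturated genes, 61 of them among the 133, 33 starting genes, 14 of them among the 31, and 94 that went on, 84 of them among the 135. Arrays 5 to 10 gave 131, 37 and 106, of which 89, 19 and 103 were shared. In both fits at once 40 of the 133, 7 of the 31 and 74 of the 135 kept their class; fewer arrays also give wider intervals. The change up to 1 mg/kg and the change after it share the same 1 mg/kg arrays, so an array error in that group moves them in opposite directions.

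**Figure D1:**
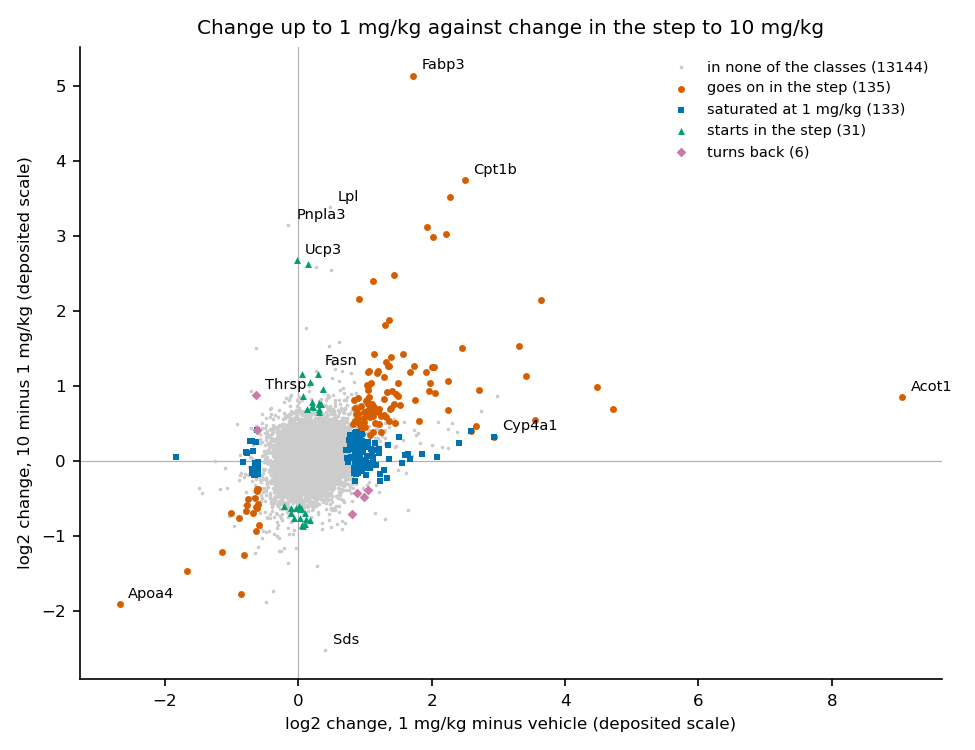
Each point is 1 of 13438 genes; the x axis gives the log2 change from vehicle to 1 mg/kg and the y axis the log2 change from 1 to 10 mg/kg, both on the deposited scale. Orange circles are the 135 responses that went on, blue squares the 133 saturated ones (drawn on top where a gene is in both classes), green triangles the 31 that started in the step and pink diamonds the 6 that turned back; Fabp3 lies highest at 5.14 and Sds lowest at -2.52.

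The 12 largest rises of the step among genes above log2 5 were, in order, those of Fabp3, Cpt1b, Adig, Lpl, Pnpla3, Aqp7, Cacna2d3, Aqp3, Ucp3, Slc6a20b, Scd2 and Krt23. Fabp3, the heart-type fatty acid binding protein, read 4.06 to 7.30 (median 5.29) on the 1 mg/kg arrays and 9.25 to 11.53 (median 10.65) on the 10 mg/kg arrays. The groups did not overlap, and Fabp3 rose 35.3-fold (log2 change 5.14 ± 0.27 SE, adjusted p = 7.57e-18). At 1 mg/kg it had already risen from a vehicle mean of 3.69, by 1.72. Cpt1b, the muscle-type carnitine palmitoyltransferase of the outer mitochondrial membrane, read 3.79 to 5.86 (median 4.76) at 1 mg/kg and 7.96 to 8.97 (median 8.48) at 10 mg/kg. Every 10 mg/kg array again lay above every 1 mg/kg array, with a rise of 13.4-fold (log2 change 3.75 ± 0.15 SE, adjusted p = 3.51e-22). Its liver-type counterpart Cpt1a, the usual enzyme of hepatocytes, rose by only 0.59 in the step, from 9.24 ± 0.30 to 9.83 ± 0.16 (mean ± SD, n = 10). With the 1 mg/kg arrays numbered 1 to 4 or 5 to 10 alone, that rise missed the threshold after quantile normalization (adjusted p = 0.0751 and 0.0744).

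Among the 12 largest rises, 7 had risen at 1 mg/kg and 11 had groups that did not overlap, against 2.46% of all genes without overlap and higher at 10 mg/kg. Adig, a small protein of adipocyte lipid droplets, rose 11.5-fold from 4.33 ± 1.08 to 7.85 ± 0.68 on the log2 scale (mean ± SD, n = 10). Aqp7 and Aqp3 are membrane channels for glycerol. Aqp7 read 2.74 to 5.22 (median 3.90) at 1 mg/kg and 6.22 to 8.01 (median 7.10) at 10 mg/kg and rose 8.67-fold. Aqp3 rose 7.95-fold with wide spread, from 2.06 to 6.07 (median 4.07) to 4.65 to 8.08 (median 6.94), and was the only one of the 12 whose groups overlapped. Cacna2d3, an auxiliary subunit of voltage-gated calcium channels, rose 8.16-fold to 7.06 ± 0.52, and the keratin gene Krt23 rose 5.61-fold to 5.75 ± 0.33.

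A list of 24 muscle-type and brown-fat-type isoforms of energy metabolism held 9 rises and 1 fall in the step (8 and 2 with the 1 mg/kg arrays 1 to 4, 8 and 1 with arrays 5 to 10), and 17 of its members were below log2 5 at both doses. Cidea, a lipid droplet protein of brown fat, rose 2.85-fold from 6.79 ± 0.58 to 8.29 ± 0.53, and Pdk4, the kinase that turns off pyruvate dehydrogenase, rose 2.51-fold from 9.96 ± 0.45 to 11.29 ± 0.45 (mean ± SD, n = 10 each). Markers of muscle and fat cells were measured beside these genes. Of 16 muscle markers 15 lay below the array median in both groups, with 1 rise (Ckm) and 1 fall (Tnni2); their mean level ranged from 1.99 to 2.10 at 1 mg/kg and from 2.16 to 2.29 at 10 mg/kg, while the lower quartile of all probe sets ranged from 1.98 to 2.04 and from 2.16 to 2.19. Of 6 adipocyte markers 4 lay below the array median in both groups and 1 rose (Adipoq), with a mean level of 2.99 to 3.41 at 1 mg/kg and 3.11 to 3.72 at 10 mg/kg. The defining muscle genes Acta1, Ckm, Myh7, Tnni2 and Tnnt3 and the fat genes Adipoq, Lep and Plin1 were among those below the median. In the fits with either part of the 1 mg/kg arrays, 0 muscle markers rose, and 0 (arrays 1 to 4) and 2 (arrays 5 to 10) adipocyte markers did. Of 7 brown adipocyte markers 5 lay below the median, Ucp1 among them, and 2 rose, Cidea and Elovl3 (1 with either part of the 1 mg/kg arrays). Hepatocyte markers lay near the top of the scale (mean level 12.37 ± 0.10 at 1 mg/kg and 12.32 ± 0.08 at 10 mg/kg, SD, n = 10), and 0 of 6 rose or fell.

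**Figure D2:**
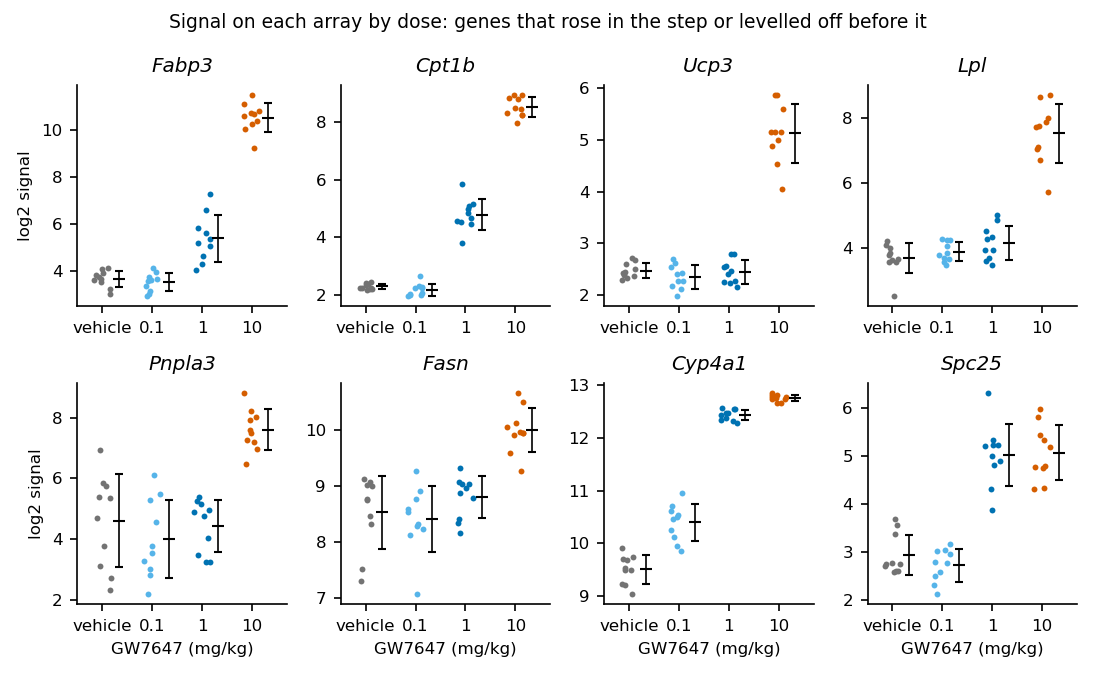
Log2 signal (y axis) of 8 genes on each of the 40 arrays by dose of GW7647 in mg/kg (x axis); points are single arrays and the bar beside each group gives mean ± SD (n = 10). Fabp3 and Cpt1b step up at 1 and again at 10 mg/kg, Ucp3, Lpl, Pnpla3 and Fasn have their highest mean at 10 mg/kg with little difference among the lower doses, and Cyp4a1 and Spc25 are nearly as high at 1 as at 10 mg/kg.

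Of 27 measured genes of fatty acid uptake, binding and activation 11 rose, 0 fell and 16 did not pass (background 8.55% and 5.98%); with common hybridisation controls 7 were higher. Their median log2 change was 0.23 against 0.09 over all genes. Lpl, the lipase that frees fatty acids from circulating lipoproteins, read 3.48 to 5.01 (median 4.12) at 1 mg/kg and 5.74 to 8.74 (median 7.75) at 10 mg/kg. All 10 mg/kg arrays were higher than all 1 mg/kg arrays, with a rise of 10.4-fold (log2 change 3.38 ± 0.25 SE, adjusted p = 3.79e-13). From vehicle to 1 mg/kg its change had been 0.47, with an interval from -0.04 to 0.99 that reached past 1.5-fold, so Lpl missed the class of starting genes by that bound. Cd36, a fatty acid translocase, rose by 1.39 in the step after 1.39 before it, with no overlap of groups. The acyl-CoA synthetase gene Acsl3 rose by 1.26, from 6.53 ± 0.33 to 7.80 ± 0.46 (SD, n = 10). Fabp1, the liver-type binding protein, moved from 12.88 ± 0.09 to 13.05 ± 0.06, a rise of 0.17 that missed the threshold when arrays were shifted to a common median or to common hybridisation controls.

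The mitochondrial route of fatty acid oxidation was partly saturated and partly still rising. Among the 24 genes measured for carnitine shuttle and mitochondrial beta-oxidation, 20 had risen at 1 mg/kg. In the step 15 rose and 0 fell, and 5 were saturated. The last 2 groups are not separate, since Acaa2, Acads and Acadvl rose in the step and were also saturated. With common hybridisation controls 9 were higher (4.52% of all genes). Crat, the carnitine acetyltransferase, read 7.63 to 8.55 (median 8.17) at 1 mg/kg and 8.96 to 9.72 (median 9.29) at 10 mg/kg, a rise of 2.19-fold with no overlap. Slc25a20, the carnitine-acylcarnitine carrier of the inner membrane, rose by 0.80, and Hadha, which encodes a subunit of the mitochondrial trifunctional enzyme, by 0.75. For both the 10 arrays of each dose did not overlap. Eci1, an enoyl-CoA isomerase for unsaturated fatty acids, was already at 12.41 ± 0.15 at 1 mg/kg against 10.00 in vehicle and at 12.66 ± 0.05 at 10 mg/kg; the difference of 0.25 did not pass after quantile normalization (adjusted p = 0.14). Decr1, the dienoyl-CoA reductase, gave 11.73 ± 0.12 and 11.97 ± 0.07, a difference of 0.24 with the same outcome (adjusted p = 0.0928 after quantile normalization).

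Peroxisomal beta-oxidation, which shortens very long fatty acids, had 7 rises and 1 fall among 15 measured genes. Ehhadh, its bifunctional enzyme, read 11.77 to 12.29 (median 12.13) at 1 mg/kg and 12.32 to 12.69 (median 12.60) at 10 mg/kg, a rise of 0.47 after one of 2.66 up to 1 mg/kg. Acot8, a peroxisomal thioesterase, rose by 0.93 from 8.29 ± 0.23 to 9.22 ± 0.10 (SD, n = 10) without overlap. Eci2 rose by 0.71 and Abcd3, a transporter of acyl-CoA into the peroxisome, by 0.69. Ech1, the dienoyl-CoA isomerase, moved little: it gave 11.68 ± 0.12 at 1 mg/kg and 12.08 ± 0.08 at 10 mg/kg, a rise of 0.41 whose interval from 0.24 to 0.57 stayed within 1.5-fold. Amacr, a racemase that serves branched fatty acids and bile acid intermediates, fell by 1.47-fold. Among 14 peroxins 4 rose, 3 and 4 with the 2 parts of the 1 mg/kg arrays, led by Pex11a, a factor of peroxisome division, with 8.94 ± 0.32 and 9.89 ± 0.24, and by Pex19, a chaperone of peroxisomal membrane proteins, with 6.12 ± 0.41 and 7.06 ± 0.26.

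In the list of acyl-CoA thioesterases, which free fatty acids from coenzyme A, 6 of 8 measured members rose, and 5 of them were large responses at 1 mg/kg that went on. Acot1, the cytosolic form, was at 1.65 in vehicle, near the floor, then read 10.34 to 11.08 (median 10.76) at 1 mg/kg and 11.39 to 11.66 (median 11.60) at 10 mg/kg. The step added 1.8-fold (log2 change 0.85 ± 0.08 SE, adjusted p = 7.90e-10), after a change of 9.06 up to 1 mg/kg. Acot2, the mitochondrial form, rose by 0.55 and Acot7 by 1.18, each without overlap. Of 13 coenzyme A genes 8 rose and 0 fell. Vnn1, a pantetheinase, rose 2.91-fold from 8.97 ± 0.43 to 10.51 ± 0.21; the synthesis genes Ppcs and Pank1 rose by 0.81 and 0.77, and the peroxisomal hydrolase Nudt7 by 0.84. Of 9 measured Cyp4 genes 1 rose and 1 fell; arrays 1 to 4 gave 0 of each and arrays 5 to 10 gave 1 fall. Cyp4a1, a fatty acid omega-hydroxylase that marks PPAR-alpha activation in rats, read 12.29 to 12.56 (median 12.45) at 1 mg/kg and 12.66 to 12.86 (median 12.77) at 10 mg/kg, so the groups did not overlap although the rise was only 0.33 on the log2 scale. That rise lost its call after quantile normalization with either part of the 1 mg/kg arrays (adjusted p = 0.276 with arrays 1 to 4 and 0.0677 with arrays 5 to 10), with common scalings of median or controls, and without single arrays of either dose. Cyp4f1 fell by 1.17-fold.

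Over the whole list of 53 measured PPAR-alpha reference targets, 40 rose and 1 fell in the step (background 8.55% and 5.98%), 45 had risen at 1 mg/kg, 31 went on and 8 were saturated. The list's median log2 change was 1.32 from vehicle to 1 mg/kg and 0.55 in the step, against 0.16 and 0.09 over all genes. With the 1 mg/kg arrays 1 to 4 alone 29 members rose, and with arrays 5 to 10 alone 37 rose. The same fits gave 5 and 10 rises among uptake genes, 9 and 13 in mitochondrial and 4 and 7 in peroxisomal beta-oxidation, 3 and 6 among thioesterases and 5 and 8 among coenzyme A genes. Ppara itself, the receptor gene, read low (2.34 ± 0.36 and 2.62 ± 0.21) and its difference of 0.29 did not pass after quantile normalization (adjusted p = 0.351). The secreted targets were mixed. Angptl4, an inhibitor of lipoprotein lipase, had risen by 1.43 at 1 mg/kg, and its difference in the step of 0.50 did not pass (adjusted p = 0.0895, interval 0.04 to 0.97). Fgf21, a hormone of fasting, rose by 0.88 from 3.60 to 5.78 (median 4.83) to 4.88 to 6.86 (median 5.44) with broad overlap, a call that was lost without any 1 of several arrays and under the common scalings.

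Most saturated genes had signals in the lower part of the scale. The 114 genes saturated upward had a median vehicle mean of 3.81 and a median 10 mg/kg mean of 4.78, while the 115 that went on upward had medians of 5.11 and 7.94. All of the vehicle, 1 and 10 mg/kg means lay below log2 5 for 75 of the 133 saturated genes and for 16 of the 135 that went on. Very bright genes were found in both classes: 4 of the genes saturated upward and 4 of those that went on upward had a 10 mg/kg mean of at least log2 12. Of these, 3 were in both classes (Acaa2, Cyp4a1 and Ech1), and only Eci1 was saturated alone and only Ehhadh went on alone. The highest value on any array was 13.58. Compression of bright signals was not tested. Cyp4a3, a further omega-hydroxylase, had 11.49 ± 0.20 at 1 mg/kg and 11.70 ± 0.12 at 10 mg/kg, after 10.13 in vehicle. The interval of its change in the step ran from 0.00 to 0.43. Crot, the peroxisomal carnitine octanoyltransferase, had 11.20 ± 0.25 and 11.52 ± 0.11, with an interval from 0.10 to 0.55. Cyp8b1, the sterol hydroxylase that sets the share of cholic acid among bile acids, had risen by 1.12 at 1 mg/kg and then gave 9.88 ± 0.30 and 9.93 ± 0.34, an interval from -0.33 to 0.44 around no change. Ucp2, an uncoupling protein gene, had risen by 1.01 and changed by 0.19 with an interval from 0.01 to 0.37. The intervals of Acot2, 0.34 to 0.76, and of Ehhadh, 0.31 to 0.63, reached past the bound, and both genes counted as going on. Of the saturated genes named so far, Acaa2, Acads, Acadvl, Eci1, Decr1, Cyp4a3 and Ucp2 stayed in the class with either part of the 1 mg/kg arrays. Crot stayed in it with arrays 5 to 10, and Cyp4a1, Ech1 and Cyp8b1 with neither part.

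Of 49 measured genes of S phase and mitosis, 29 had risen at 1 mg/kg, 7 rose in the step, 0 fell and 6 were saturated; 2 were higher with common hybridisation controls, and 34 of the 49 were below log2 5 at both doses. With the 1 mg/kg arrays 1 to 4 alone 1 rose in the step, and with arrays 5 to 10 alone 8 did. Spc25, a subunit of the kinetochore complex that binds spindle microtubules, read 3.87 to 6.33 (median 5.11) at 1 mg/kg and 4.33 to 5.98 (median 4.99) at 10 mg/kg, and the interval of its change ran from -0.39 to 0.49. Aurka, a mitotic kinase, read 4.98 to 6.18 (median 5.54) and 4.35 to 6.02 (median 5.49), with an interval from -0.56 to 0.21. The groups of both genes overlapped widely. Aurka met the bounds of the saturated class with arrays 5 to 10 and not with arrays 1 to 4, and Spc25 with neither part. Mki67, a marker of cycling cells, stayed near the floor with 2.36 ± 0.39 and 2.64 ± 0.45, a difference that did not pass (adjusted p = 0.12). Rfc3, a loader of the replication clamp, was among the 7 rises with 0.45, a call lost with common hybridisation controls. Cyclin D1 (Ccnd1) had 6.78 ± 0.36 and 6.68 ± 0.28, and the CDK inhibitor Cdkn1a 6.35 ± 0.40 and 6.27 ± 0.58; neither passed (adjusted p = 0.715 and 0.841). Their intervals in the step, -0.48 to 0.27 and -0.60 to 0.44, leave room for changes of moderate size.

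Of the 66 downward responses at 1 mg/kg 19 were saturated. Hsd17b6, a hydroxysteroid dehydrogenase, had 10.41 ± 0.59 at 1 mg/kg and 10.30 ± 0.31 at 10 mg/kg, after 11.10 in vehicle. Ackr4, an atypical chemokine receptor, had 5.09 ± 0.47 and 5.22 ± 0.31 after 5.76. Aen, an apoptosis-enhancing nuclease, and Dusp5, a phosphatase of MAP kinases, changed in the step by -0.05 and -0.18 after -0.62 and -0.60 up to 1 mg/kg. None of these 4 differences passed on either scale, and each interval lay within 1.5-fold by the rule of the class. Ackr4 and Dusp5 stayed in it with arrays 5 to 10, Aen with arrays 1 to 4 and Hsd17b6 with neither. Ccser2, saturated upward at 5.02 ± 0.43 and 5.17 ± 0.28, was also among the 10 largest responses of its class.

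The genes that started in the step were few and mostly dim. All of the vehicle, 1 and 10 mg/kg means were below log2 5 for 19 of the 31, and 12 of the 31 had groups at 1 and 10 mg/kg that did not overlap. Ucp3, an uncoupling protein typical of skeletal muscle, was the largest. It read 2.16 to 2.79 (median 2.43) at 1 mg/kg, against a vehicle mean of 2.48, and 4.06 to 5.88 (median 5.16) at 10 mg/kg. Every array of the lower doses lay below the 10 mg/kg group, and the rise was 6.41-fold (log2 change 2.68 ± 0.14 SE, adjusted p = 8.62e-18). Slc6a20b, a sodium-dependent transporter gene of the SLC6 family, read 2.21 to 2.80 (median 2.60) and then 4.43 to 5.89 (median 5.19), again without overlap, a rise of 6.18-fold (adjusted p = 1.27e-19). The other 4 upward starts above log2 5 were smaller. Mmp24, a membrane-bound matrix metalloproteinase, rose by 0.79 from 4.97 ± 0.25 to 5.77 ± 0.28, and Phkb, a regulatory subunit of phosphorylase kinase in glycogen breakdown, by 0.74 from 4.69 ± 0.33 to 5.43 ± 0.22. Chid1 rose by 0.66 without overlap, and Emc1, a subunit of the membrane protein insertion complex of the endoplasmic reticulum, by 0.77. The other probe sets of Emc1 gave -0.14 and -0.08, neither past the threshold, so its start rests on 1 probe set. Ucp3 and Mmp24 met the rule of the class with either part of the 1 mg/kg arrays, Slc6a20b, Phkb and Chid1 with arrays 5 to 10, and Emc1 with arrays 1 to 4.

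Promoter sequence is shown for the first genes, in order of size, of the upward starting and saturated classes that have an entry in the RefSeq promoter table of the GRCr8 assembly. PPAR-alpha with its partner is known to bind direct repeats of the hexamer AGGTCA with 1 base between them. These windows let a reader compare a gene that started at 10 mg/kg with one that was saturated at 1 mg/kg. The hexamer was searched on both strands, as AGGTCA and TGACCT, in the 250 bases before the start of transcription, and matches are in capitals. It occurred in 14.1% of all 33469 such windows, and the full repeat (AGGTCA, any 1 base, AGGTCA, on either strand, which includes 2 hexamers) in 0.0508% of them. Cyp4a1 and Ech1, first in the saturated class, were not matched in that table. The windows are given in the direction of transcription. Ucp3 lies at chr1:164227660-164227909 (plus strand), Slc6a20b at chr8:132158423-132158672 (minus strand, the first of 2 starts listed), Eci1 at chr10:13961000-13961249 (plus strand) and Spc25 at chr3:74396719-74396968 (minus strand).
Ucp3: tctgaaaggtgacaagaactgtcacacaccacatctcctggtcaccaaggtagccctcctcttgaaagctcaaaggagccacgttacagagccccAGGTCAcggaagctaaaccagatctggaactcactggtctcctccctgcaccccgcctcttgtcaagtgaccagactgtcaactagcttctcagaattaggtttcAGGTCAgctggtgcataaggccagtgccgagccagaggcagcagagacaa
Slc6a20b: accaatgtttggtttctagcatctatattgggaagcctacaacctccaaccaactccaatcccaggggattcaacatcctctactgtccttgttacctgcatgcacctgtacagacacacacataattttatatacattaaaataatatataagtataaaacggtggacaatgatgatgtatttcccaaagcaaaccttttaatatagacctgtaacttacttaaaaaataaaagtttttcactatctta
Eci1: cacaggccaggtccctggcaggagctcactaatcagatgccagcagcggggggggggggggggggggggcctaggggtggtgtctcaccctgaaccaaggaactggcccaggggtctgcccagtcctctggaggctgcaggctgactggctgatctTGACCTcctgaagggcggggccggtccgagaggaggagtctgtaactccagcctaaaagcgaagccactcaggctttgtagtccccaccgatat
Spc25: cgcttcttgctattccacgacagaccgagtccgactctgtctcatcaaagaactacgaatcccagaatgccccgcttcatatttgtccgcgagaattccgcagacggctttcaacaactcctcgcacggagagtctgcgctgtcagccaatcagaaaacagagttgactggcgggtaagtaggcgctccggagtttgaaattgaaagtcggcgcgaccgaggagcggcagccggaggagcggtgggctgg
The Ucp3 window held 2 hexamers in the sense direction, beginning 155 and 50 bases before the start, and the Eci1 window held 1 in the opposite direction, beginning 94 bases before it. Those of Slc6a20b and Spc25 held 0, as did those of Mmp24 and Crot, which complete the 3 genes of each class. The full repeat was found in 0 of these 6 windows. A match is a string of letters and was not tested for binding.

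Of the 15 downward starts 6 were above log2 5. Saa4, a constitutive serum amyloid A protein, read 10.35 to 11.26 (median 10.92) at 1 mg/kg and 9.81 to 10.71 (median 10.18) at 10 mg/kg, a fall by 1.62-fold after a vehicle mean of 11.03. Aass, which begins lysine breakdown, went from 10.20 ± 0.31 to 9.51 ± 0.25, a fall by 1.61-fold. Rnaseh2c, a subunit of ribonuclease H2, fell by 1.72-fold, the immunity-related GTPase gene Irgm by 1.71-fold and the lipoprotein receptor-related gene Lrp3 by 1.54-fold. Groups overlapped for all 5 of these genes. Lrp3 met the rule of the class with either part of the 1 mg/kg arrays, Saa4, Aass and Rnaseh2c with arrays 5 to 10, and Irgm with neither. Ddb2, a DNA damage sensor, was in the same class with a change of -0.63, but its other probe set rose by 0.46, so no direction is given for the gene. With no such limits on the change at 1 mg/kg, 80 rises and 83 falls of at least 1.5-fold had no call at 1 mg/kg on both scales, of which 64 and 69 did not meet the limits of the starting class.

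Of 22 measured genes of lipogenesis and desaturation 15 rose and 0 fell, against 10 rises and 1 fall at 1 mg/kg, and the median log2 change was 0.51 in the step and 0.42 before it (0.09 and 0.16 over all genes). Of the 22, 9 rose with the 1 mg/kg arrays 1 to 4 alone and 14 with arrays 5 to 10 alone. Fasn, the fatty acid synthase, read 8.16 to 9.32 (median 8.92) at 1 mg/kg and 9.26 to 10.67 (median 9.96) at 10 mg/kg, and rose 2.3-fold (SE 0.22 on the log2 scale, adjusted p = 7.47e-05). The groups met only at their edges. At 1 mg/kg Fasn had a mean of 8.80 against 8.53 in vehicle, a difference that did not pass on both scales. Scd2, a stearoyl-CoA desaturase isoform, read 3.72 to 4.67 (median 4.17) and 5.46 to 8.43 (median 6.86), a rise of 5.87-fold without overlap. The isoform Scd gave 11.88 ± 0.17 and 12.20 ± 0.04; these groups did not overlap either, but the difference of 0.32 did not pass with the pooled spread of all 4 groups (adjusted p = 0.0618). Elovl6, which elongates palmitate, rose by 2.16 from 4.21 ± 0.74 to 6.37 ± 0.59. Me1, the malic enzyme that supplies NADPH, rose by 1.18 after 1.91 up to 1 mg/kg. Thrsp, a lipogenic protein under thyroid hormone, was 1 of the 6 genes that turned back: its mean was 10.78 in vehicle, 10.15 ± 0.61 at 1 mg/kg and 11.02 ± 0.35 at 10 mg/kg. Rufy1, an endosomal protein gene, turned back the other way, from 4.79 in vehicle to 5.84 ± 0.18 and then 5.45 ± 0.18.

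Among 25 lipid droplet genes 10 rose and 1 fell; either part of the 1 mg/kg arrays gave 10 rises, with 0 falls for arrays 1 to 4 and 2 for arrays 5 to 10. Pnpla3, a droplet-bound hydrolase gene, read 3.24 to 5.40 (median 4.82) at 1 mg/kg and 6.49 to 8.82 (median 7.53) at 10 mg/kg, a rise of 8.89-fold without overlap (log2 change 3.15 ± 0.48 SE, adjusted p = 4.64e-06). Its vehicle arrays were scattered (4.60 ± 1.53, SD, n = 10), and the interval of its change up to 1 mg/kg was wide, from -1.13 to 0.82. The droplet coat genes Plin5 and Plin2 rose by 1.43 and 0.69, both without overlap, and the monoglyceride lipase gene Mgll 2.3-fold. Of 6 genes of glycerol handling 4 rose and 1 fell, in either part too. Besides the 2 channels described above, Gpd2, the mitochondrial glycerol phosphate dehydrogenase, rose by 1.42 from 5.28 ± 0.54 to 6.70 ± 0.40, and the cytosolic enzyme Gpd1 by 0.40 from 11.38 ± 0.18 to 11.78 ± 0.14.

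Of 20 measured genes of cholesterol synthesis 9 rose, 0 fell and 11 did not pass, and 6 were higher with common hybridisation controls. At 1 mg/kg 1 had risen and 1 had fallen; this difference between steps was not tested. Insig1, which retains the sterol sensor in the endoplasmic reticulum, read 8.46 to 9.85 (median 9.08) at 1 mg/kg and 9.69 to 10.91 (median 10.36) at 10 mg/kg, with a rise of 1.11 and overlapping groups. Lss, the lanosterol synthase, rose by 0.94, Hsd17b7 by 0.83 and Pmvk, the phosphomevalonate kinase, by 0.64. Of the 20, 4 rose with the 1 mg/kg arrays 1 to 4 alone and 9 with arrays 5 to 10 alone. Among 21 bile acid genes 3 rose and 1 fell; arrays 1 to 4 gave the same counts, arrays 5 to 10 gave 1 of each, and common hybridisation controls gave 1 higher and 1 lower. Nr0b2, a corepressor known as SHP, rose by 1.41 from 6.92 ± 0.96 to 8.33 ± 0.42, and Cyp7a1, the hydroxylase that starts the main route to bile acids, by 0.92 from 7.65 ± 0.75 to 8.57 ± 0.70. For Cyp7a1 the adjusted p was 0.0188 as deposited and 0.0459 once quantile normalized, and the call was lost when single arrays were left out and with either part of the 1 mg/kg group.

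Of 33 proteasome subunits 21 rose and 0 fell, with a median log2 change of 0.36 as deposited and 0.28 once quantile normalized. Psmd13, a lid subunit of the regulatory particle, gave 6.98 ± 0.20 and 7.57 ± 0.17; the core subunits Psmb1 and Psmb3 gave rises of 0.51 and 0.49 without overlap. Of 59 genes of the respiratory chain and ATP synthase 18 rose, of 59 mitochondrial ribosomal proteins 18 rose, and of 18 genes of the tricarboxylic acid cycle 6 rose; 0 fell in any of the 3 lists. Ndufb2, a complex I subunit, rose by 0.35 and Mrpl12, a protein of the large mitochondrial ribosomal subunit, by 0.46, both without overlap. Aco1, the cytosolic aconitase that also serves as an iron sensor, rose by 0.59 and the malate dehydrogenase gene Mdh2 by 0.49. Among import and chaperone genes 12 of 29 rose and 1 fell, with 0.81 for Timm10b, 0.66 for the prohibitin gene Phb1 and 0.52 for the protease gene Clpp. Most members of these 4 mitochondrial lists did not pass (41, 41, 12 and 16). With common hybridisation controls 11 of the 33 proteasome genes were higher, 8 of the 29 import genes, 3 of the 18 cycle genes, 3 of the 59 mitochondrial ribosomal proteins and 1 of the 59 respiratory chain genes, where 4.52% of all genes were; the shares of the last 2 lists were near and below that of all genes. The counts also differed between the parts of the 1 mg/kg group. With arrays 1 to 4, 11 proteasome, 2 respiratory chain (3.39%), 5 mitochondrial ribosomal, 2 tricarboxylic acid cycle and 5 import genes rose, against 3.93% of all genes; with arrays 5 to 10, 20, 17, 16, 6 and 13 did, against 6.93%.

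**Figure D3:**
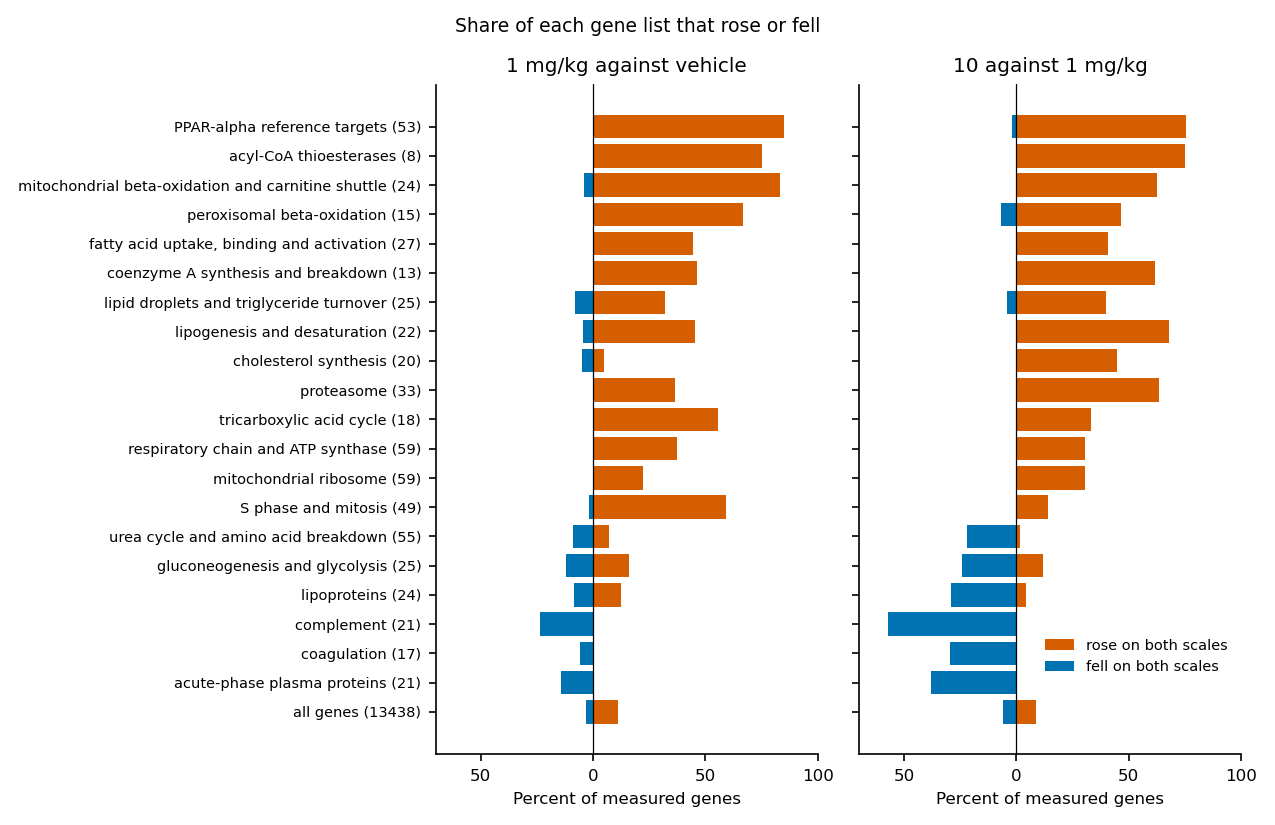
Percent of the measured genes of 20 lists and of all genes (number measured in brackets) that rose (orange, to the right) or fell (blue, to the left) on both scales, for 1 mg/kg against vehicle in the left panel and for 10 against 1 mg/kg in the right panel. Lipogenesis, cholesterol synthesis and proteasome bars are longer on the right, the S phase and mitosis bar is longer on the left (29 against 7 of 49 rose), and complement has the longest blue bar on the right (12 of 21).

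Several genes of amino acid breakdown fell in the step. Of 55 measured genes of the urea cycle and amino acid breakdown 12 fell and 1 rose (background 5.98% and 8.55%), against 5 falls and 4 rises at 1 mg/kg; 7 were lower with common hybridisation controls (4.05% of all genes). Sds, the serine dehydratase that feeds serine carbon into gluconeogenesis, read 7.14 to 9.15 (median 8.20) at 1 mg/kg and 3.80 to 7.06 (median 5.83) at 10 mg/kg. The groups did not overlap, and Sds fell by 5.75-fold (log2 change -2.52 ± 0.34 SE, adjusted p = 3.65e-07), the largest fall of the step among genes above log2 5. Its mean had been 7.83 in vehicle, and the change of 0.40 up to 1 mg/kg had no call on both scales. Hal, the histidase, read 8.27 to 9.02 (median 8.87) and 7.35 to 8.03 (median 7.77), a fall by 1.99-fold. Ass1, the argininosuccinate synthase of the urea cycle, read 10.78 to 11.19 (median 11.06) and 9.47 to 10.77 (median 10.22), a fall by 1.85-fold that followed a log2 change of -0.55 up to 1 mg/kg. For Hal and Ass1, too, no 10 mg/kg array reached the 1 mg/kg range. Prodh, the proline dehydrogenase, fell by 1.7-fold, although its other probe set gave 0.12 and did not pass. In this list 7 genes fell with the 1 mg/kg arrays 1 to 4 alone and 13 with arrays 5 to 10 alone.

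Some genes of glucose production fell in the step. Pck1, the phosphoenolpyruvate carboxykinase, read 10.62 to 11.51 (median 11.17) at 1 mg/kg and 9.36 to 11.15 (median 9.82) at 10 mg/kg and fell by 2.3-fold (SE 0.16 on the log2 scale, adjusted p = 5.12e-07); its highest 10 mg/kg array lay inside the 1 mg/kg range. Slc37a4, the glucose-6-phosphate carrier, fell by 1.34-fold. In the list of gluconeogenesis and glycolysis, 6 of 25 fell (24%, against 5.98% of all genes) and 3 rose (12%, against 8.55%). Of the 25, 11 lay below log2 5 at both doses. Arrays 1 to 4 gave 3 falls (12%, against 2.6%) and 1 rise (4%, against 3.93%). Arrays 5 to 10 gave 5 falls (20%, against 5.26%) and 3 rises (12%, against 6.93%). Ugp2, which makes UDP-glucose for glycogen, went on falling, from 9.49 in vehicle to 8.86 ± 0.36 and 7.93 ± 0.24, without overlap in the step.

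**Figure D4:**
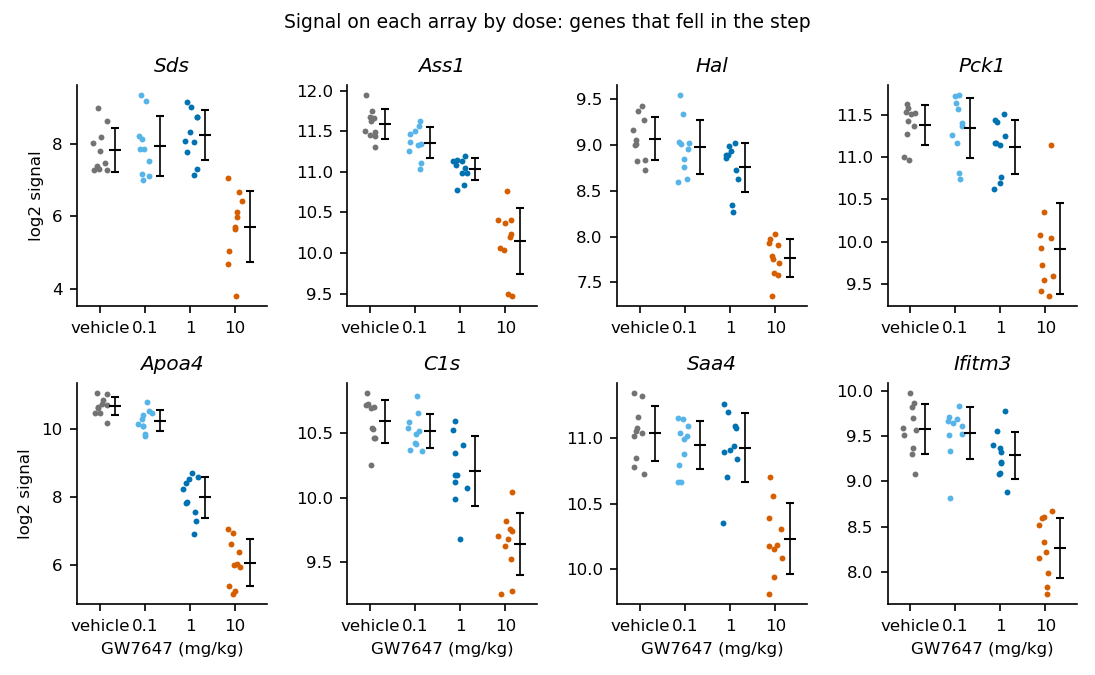
Log2 signal (y axis) of 8 genes that fell in the step on each of the 40 arrays by dose of GW7647 in mg/kg (x axis); points are single arrays and the bar beside each group gives mean ± SD (n = 10). Apoa4 and Ass1 descend at 1 and again at 10 mg/kg, while Sds, Pck1, Saa4 and Ifitm3 lie lowest at 10 mg/kg.

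Plasma proteins of the liver were followed in 3 lists. Of 21 complement genes 12 fell, of 17 coagulation genes 5 fell and of 21 acute-phase genes 8 fell; 0 rose, and 9, 12 and 13 did not pass. With common hybridisation controls 6, 2 and 5 were lower (4.05% of all genes). At 1 mg/kg the falls had been 5, 1 and 3. The median log2 change in the step was -0.21, -0.13 and -0.18 for the 3 lists as deposited and -0.30, -0.23 and -0.30 once quantile normalized. C1s, the protease of the classical complement pathway, read 9.68 to 10.60 (median 10.17) at 1 mg/kg and 9.25 to 10.04 (median 9.69) at 10 mg/kg, a fall by 1.48-fold. Cfi, a protease that inactivates complement fragments, gave 11.14 ± 0.10 and 10.68 ± 0.12 without overlap. C6, part of the membrane attack complex, fell by 1.42-fold, a call lost without single arrays and with common hybridisation controls. The kallikrein gene Klkb1 fell by 1.35-fold and Cpb2, an inhibitor of clot lysis, by 1.32-fold. Larger falls were seen in the acute-phase list. That list also holds Mt2A, a metallothionein, which is a protein of the cell interior and not of plasma. Mt2A read 6.88 to 9.91 (median 8.25) and 5.16 to 7.62 (median 6.49) and fell by 3.32-fold, with overlap. Against the 1 mg/kg arrays 1 to 4 alone its fall did not pass (adjusted p = 0.1). A2m, a protease inhibitor induced by inflammation in rats, fell by 2.38-fold, with an adjusted p of 0.0667 against arrays 1 to 4. Hamp, the iron hormone hepcidin, fell by 1.44-fold, again a call lost without single arrays. With arrays 1 to 4 alone the falls in the 3 lists were 4, 1 and 4, and with arrays 5 to 10 alone 11, 5 and 8.

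Among 24 lipoprotein genes 7 fell and 1 rose; arrays 1 to 4 gave 5 falls and 0 rises, arrays 5 to 10 gave 6 and 1. Apoa4, an apolipoprotein of triglyceride-rich particles, was the strongest downward response that went on: its mean was 10.66 in vehicle, and it read 6.91 to 8.68 (median 8.04) at 1 mg/kg and 5.15 to 7.06 (median 6.01) at 10 mg/kg. The fall in the step was 3.76-fold (log2 change -1.91 ± 0.21 SE, adjusted p = 8.62e-09) with a small overlap of groups. Apoa5, which aids triglyceride clearance, fell by 1.49-fold. Ifitm3, an interferon-induced membrane protein, read 8.88 to 9.78 (median 9.26) and 7.76 to 8.67 (median 8.28) without overlap, a fall by 2.03-fold. The immunoproteasome gene Psmb8 and the class I gene RT1-S3 fell by 1.54-fold and 1.66-fold. RT1-S3 belongs to a family of near-identical genes that its probes may not separate. In the interferon list 4 of 24 fell, 0 rose and 20 did not pass; with the 1 mg/kg arrays 1 to 4 alone 1 fell, and with arrays 5 to 10 alone 8. Of 18 antigen presentation genes, which include Psmb8 and RT1-S3, 4 fell, 1 rose (Tapbp, by 0.49) and 13 did not pass; 2 were lower and 1 higher with common hybridisation controls, and arrays 1 to 4 and 5 to 10 gave 1 and 3 falls. Beside these values, 2 of 8 macrophage markers fell (0 with arrays 1 to 4 and 2 with arrays 5 to 10), among them the Kupffer cell receptor Clec4f by 1.35-fold, and the mean level of the 8 ranged from 6.40 to 7.55 at 1 mg/kg and from 5.90 to 7.02 at 10 mg/kg; the part of these cells in the falls was not tested.

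Ugt2b1, a UDP-glucuronosyltransferase, read 8.17 to 10.48 (median 9.28) at 1 mg/kg and 6.08 to 9.01 (median 7.73) at 10 mg/kg and fell by 3.69-fold (adjusted p = 1.74e-06). Cyp3a9, a cytochrome P450, continued to fall, with log2 changes of -1.14 up to 1 mg/kg and -1.22 in the step; against the 1 mg/kg arrays 1 to 4 alone the step did not pass (adjusted p = 0.0733). The shares of the next 3 lists stand against 8.55% of all genes that rose and 5.98% that fell. Of 17 CAR and PXR targets 5 fell (29.4%), 2 with arrays 1 to 4 and 4 with arrays 5 to 10. In this list 1 rose (5.88%), the electron donor of these enzymes, Por, by 0.57. Growth hormone dependent and male-typical genes numbered 23, of which 4 fell (17.4%) and 2 rose (8.7%, near the share of all genes). Arrays 1 to 4 gave 1 fall (4.35%, against 2.6% of all genes) and 0 rises. Arrays 5 to 10 gave 3 falls (13%, against 5.26%) and 1 rise (4.35%, against 6.93%). Both rises with all arrays, of Igfbp2 by 1.06 and Mup5 by 0.37, were of genes below log2 5. Cyp2c11, the male-typical cytochrome P450 of rat liver, fell by 1.45-fold, and Igfals, a growth hormone dependent carrier of IGF, by 1.45-fold. Hsd11b2, which inactivates corticosterone, fell by 2.56-fold from 5.40 ± 0.36 to 4.04 ± 0.49, and Dio1, the deiodinase that activates thyroxine, by 1.62-fold after -1.01 up to 1 mg/kg. Dio1 was the 1 fall among 13 genes of thyroid hormone handling and response (7.69%, near the share of all genes). Of the 13, 4 rose (30.8%): Me1, Gpd2, Thrsp and the receptor gene Thrb (by 0.40). In that list arrays 1 to 4 gave 2 rises and 2 falls, and arrays 5 to 10 gave 3 and 0. Hnf4a, a master regulator of hepatocyte genes, fell by 1.35-fold, while its other probe sets gave 0.05 and -0.15 and did not pass.

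Several large falls belong to no list. Stac3, known as an adaptor of muscle contraction, went on falling, from 10.77 in vehicle to 9.92 ± 0.65 and 8.15 ± 0.57. Adora2b, an adenosine receptor, fell by 2.63-fold and Sez6 by 2.23-fold, but neither passed against the 1 mg/kg arrays 1 to 4 alone (adjusted p = 0.126 and 0.0741). Xpnpep2, an aminopeptidase, went on falling, by 1.81-fold. Of the 12 largest falls 2 had groups that did not overlap, against 0.387% of all genes without overlap and lower at 10 mg/kg, and 4 had fallen at 1 mg/kg. Of 29 heat shock genes 4 rose (13.8%) and 1 fell (3.45%), where 8.55% of all genes rose and 5.98% fell. Of 22 amino acid stress genes 2 rose (9.09%) and 3 fell (13.6%). The median log2 change of these lists was 0.07 and 0.05, against 0.09 over all genes. Of 23 immediate-early genes 0 rose and 3 fell (background 8.55% and 5.98%). For these 3 lists the 1 mg/kg arrays 1 to 4 gave 0, 1 and 0 rises and 1, 0 and 1 falls. Arrays 5 to 10 gave 6, 1 and 0 rises and 1, 3 and 1 falls. Hspb1, a small heat shock protein, rose by 0.69 after 2.25 up to 1 mg/kg, a call lost with arrays 1 to 4. Asns, the asparagine synthetase, rose by 0.90 from 4.34 ± 0.34 to 5.24 ± 0.38. In the endoplasmic reticulum stress list 5 of 24 fell and 0 rose; 2 fell with either part of the 1 mg/kg arrays, and 2 were lower with common hybridisation controls. The immediate-early genes Dusp1 and Ier3 fell by 1.9-fold and 1.64-fold, the former on a call that was lost without single arrays of both doses. Gdf15, a stress hormone, read 3.01 to 4.93 (median 3.73) at 1 mg/kg and 3.02 to 6.88 (median 3.78) at 10 mg/kg, and its difference did not pass (adjusted p = 0.742).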

How the data were processed

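Liver RNA of 40 rats was measured on Affymetrix arrays, 1 array per rat. Per the submitters' processing notes the authors made the values with GCRMA and Partek (versions not given in the sources used here), and the deposited values are on a log2 scale. GCRMA corrects background by a model of nonspecific binding, which shapes values near the floor. No raw scans were analysed here, so precision is limited by the number of arrays.

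Of 31139 probe sets, 19063 carried 1 symbol, 572 several, 11407 none and 97 were controls. Symbols came from the platform's annotation, and 18983 were matched through Entrez numbers to RefSeq (GRCr8). For each of 13438 genes the probe set with the highest mean was used. limma 3.58.1 in R 4.3.3 fitted all 4 groups (36 residual degrees of freedom), and intervals are at 95%. The same fit was run after quantile normalization of the 40 arrays. The procedure was tested on simulated data. Each rat counts as 1 replicate. Columns that matched no sample numbered 0.

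Alternatives covered scaling, choice of probe set, filter, model, class bounds, parts of the 1 mg/kg group, a replicate block and single arrays left out. The leave-one-out fits of the classes and named genes were added after seeing the data.

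Most genes were named by rule, with a mean of at least log2 5 in the higher group. They were the 12 leading rises and 12 leading falls by size and the leading members of each class. For the classes these were up to 12 upward and 6 downward starts, 10 and 4 saturated, 6 each way going on and 6 turning back. Up to 4 members with the largest change of each of 56 lists were added. A fixed set was named whatever its level: known PPAR-alpha responders and some genes of the cell cycle, stress and bile acid synthesis. List genes numbered 1238, of which 1042 were found. Names given outside this rule were chosen after their values were seen. The members and lists were chosen with earlier results of these data known.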

Additional observations from a re-analysis of the deposited data

Results flagged for a closer look

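Single arrays stood apart from the other 9 of their group for 11 of 266 gene and group pairs (4.14%), where chance gives about 1 in 20. At 1 mg/kg, array 3 read low for Crot (10.65) and array 9 for Crat (7.63) and Plin2 (10.60), while array 10 stood apart for Psmb1 (9.98) and Psmb3 (9.69). At 10 mg/kg, array 1 read 11.83 for Thrsp, 9.33 for Apoa5 and 6.10 for Asns, array 4 read 6.88 for Gdf15 and 10.17 for Cyp2c11, and array 8 read 7.05 for Lss. Leaving out any of these arrays reversed no direction of a named gene.

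Outside the main comparison lie 11407 probe sets without a gene symbol. On both scales 866 of them rose and 416 fell in the step, 11.2% together, against 14.5% of the named genes, and 3 of the rises were at least 4-fold. They are unnamed here.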

How the results depend on the processing

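The count of genes called in the step was 4109 on the deposited scale. It was 2462 after quantile normalization of all 40 arrays, 2336 when only the 20 arrays were quantile normalized, 2483 with the poly-A level as a covariate after quantile normalization, 1151 with common hybridisation controls, 1422 among the 5810 genes with a group mean of log2 5 or more, 264 when a minimum fold was tested, and 1993 with the 1 mg/kg arrays 1 to 4, which are fewer samples. It stayed within 1.5 times with a common median (3044), only the 2 groups (4018), another probe set rule (4354 and 4514), a trended robust prior (4130) and array weights (4598). Rises and falls on both scales numbered 878 with arrays 1 to 4. By construction of the classes, a narrower bound left 14 saturated responses and a 2-fold bound 275; of responses that start in the step, they left 0 and 136. With arrays 5 to 10, 13 genes turned back. The cause of the other differences was not tested. Leaving out single arrays gave 3794 to 4122 calls, 1770 to 1957 rises and falls, 117 to 150 saturated, 27 to 36 starting, 124 to 139 going on and 6 to 10 turning back; the 10 came without 1 mg/kg array 1.

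Among the 113 named genes that passed, leaving out an array removed calls of Cyp4a1, Cyp7a1, Fgf21, Hamp, C6 and Dusp1 and of no other. The call of Cyp4a1 was lost without 1 mg/kg array 3, 6, 8 or 9 or 10 mg/kg array 1, and that of Cyp7a1 without any array other than 1 mg/kg arrays 3, 5, 6 and 7 and 10 mg/kg arrays 2 and 3. Fgf21 lost it without 1 mg/kg array 1, 4, 9 or 10 or 10 mg/kg array 2, 5, 6 or 8, Hamp without 1, 6, 7 or 9 or 3, 4 or 8, C6 without 2 or 9 or 1 or 3, and Dusp1 without 2, 3, 4, 8, 9 or 10 or 1, 3, 5, 6, 7 or 9, in the same order of doses. Without 1 mg/kg array 1 the log2 change of Cyp7a1 was 0.80, of Fgf21 0.83 and of Hamp -0.50. Other probe sets reversed the sign for Ddb2 (0.46), Emc1 (-0.14 and -0.075), Hnf4a (0.054) and Prodh (0.12). A further 11 other probe sets kept the sign of a named gene with a call but did not pass on both scales themselves. For 36 the outcome was the same as that of the probe set used, and 1 passed for a gene without a call. Of the 113 named genes with a call 27 lost it with the 1 mg/kg arrays 1 to 4 and 10 with arrays 5 to 10, and 0 reversed.

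With the replicate block, the genes called in the step numbered 4110 and 1999 rose or fell, and no named call changed. Same-numbered arrays deviated together weakly (correlations from -0.15 to 0.37, 5 of 10 above 0.1), and 2 of the 1 mg/kg arrays matched their own number best. Such values cannot settle whether the numbers pair the rats, and no label says that they do.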

Other observations

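Counts of further gene groups follow, where 8.55% of all genes rose and 5.98% fell. Among 7 ketone body genes 3 rose and 1 fell in the step: the transporter gene Slc16a6 rose by 1.02 and the mitochondrial thiolase gene Acat1 by 0.51 on the log2 scale. Of 36 cytosolic ribosomal proteins 8 rose and 0 fell, led by Rpl13a with 0.34; with the 1 mg/kg arrays 1 to 4 alone 3 rose and with arrays 5 to 10 alone 11, and 2 were higher with common hybridisation controls. Among 32 metabolic nuclear receptors and coactivators 7 rose and 1 fell; with the parts of the 1 mg/kg arrays 3 and 4 rose. Creb3l3, a membrane-bound transcription factor of fasting, rose by 0.49 from 10.61 ± 0.13 to 11.09 ± 0.14 (SD, n = 10), and Nr1h3, the oxysterol receptor LXR-alpha, by 0.39. Cdk4, a kinase of the passage from G1 to S phase, rose by 0.34, 1 of 5 rises and 1 fall among 25 genes of cyclins, CDK inhibitors and p53 targets (0 rises with arrays 1 to 4 and 5 with arrays 5 to 10). Xbp1, a transcription factor of the unfolded protein response, fell by 1.22-fold. Of 5 sinusoidal endothelium markers Kdr fell, by 1.13-fold. In that list 0 fell with either part of the 1 mg/kg arrays, and 0 were lower with common hybridisation controls. Of 30 antioxidant genes 3 rose (10%) and 2 fell (6.67%), near the shares of all genes. With arrays 1 to 4, 0 antioxidant genes rose and 1 fell, and with arrays 5 to 10, 3 rose and 1 fell.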
